A study of Mus musculus with 8 samples.

Results

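The genes of glycolysis and of the pentose phosphate pathway, with the transporters and regulators that feed and drain them, were described across 3 populations of dendritic cell (DC) progenitors from mouse bone marrow. The set was 33 genes chosen by name. The platform annotation gives 29 of them a probe set that it assigns to no other gene, and 28 passed the filter on dim probe sets and were tested among 13356 genes. Eno2, an enolase best known from neurons, lay below that filter, with log2 signals of 3.77 to 4.05. Gapdh, which oxidises glyceraldehyde phosphate, was listed only on probe sets shared with other genes. Gpi1, Eno1 and G6pdx, the genes of glucose phosphate isomerase, the widely expressed enolase and the first pentose phosphate enzyme, had no probe set under these symbols in the annotation used here and were not analysed.

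All 3 populations came from the marrow of mice heterozygous for a Zeb2-GFP fusion reporter, an allele that every group shared, and the labels record no drug or other agent. Zeb2hi and Zeb2low CDPs, fractions of the common DC progenitor, had 3 arrays each, and pre-CD8 DCs, precursors of the CD8a+ classical DC (cDC1), had 2. Cells were sorted by flow cytometry, and their RNA was amplified with a kit made for small inputs and hybridised to Affymetrix arrays. The labels name no age, strain background or marker of the sort. They do not state that arrays of a group came from separate animals, and p-values therefore cover only the spread among these arrays, which may be technical. In sorted bulk samples a change in the mix of cells and a change of RNA per cell cannot be told apart.

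Glycolysis converts glucose to pyruvate in the cytosol with a small yield of ATP, and cells that divide fast commonly run it at a high rate and export lactate. The pentose phosphate pathway branches off after glucose has been phosphorylated, supplies NADPH and the ribose of nucleotides, and returns sugars to glycolysis through transketolase and transaldolase. Many of these genes can be induced by the hypoxia-inducible factors and by MYC, and in marrow they are used both by dividing progenitors and by maturing granulocytes.

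Signals are log2 of the deposited intensity, and a difference between groups is given on that scale with limma's standard error and with the p-value adjusted over all 13356 genes. The median log2 signal of all probe sets was 4.91 to 4.98 on the Zeb2hi arrays and 5.07 to 5.14 on the Zeb2low arrays. It was 4.97 and 5.04 on the pre-CD8 DC arrays, so a small offset followed the CDP groups. Zeb2, the gene of the reporter, followed the labels. It was highest on the Zeb2hi arrays (9.05 to 9.45), lower on the Zeb2low arrays (7.49 to 7.86) and lowest on the pre-CD8 DC arrays (6.53 and 6.93). Flt3 lay between 9.07 and 9.63 on all arrays. Of 6 DC progenitor markers, these among them, 2 were higher and 3 lower in pre-CD8 DCs than in Zeb2hi CDPs. The shares of all genes were 6.51% and 11.1%. Kit was 7.34 to 8.14 in Zeb2hi CDPs and 8.72 and 9.07 in pre-CD8 DCs. Csf1r was 9.16 to 9.56 and then 8.06 and 7.23. Of 9 tested cDC1 and pre-cDC1 markers 5 were higher in Zeb2low than in Zeb2hi CDPs, against 4.5% of all genes. In pre-CD8 DCs 7 were higher than in Zeb2hi CDPs, against 6.51% of all genes, but Itgae lay below the filter everywhere. Irf8 did not rise in Zeb2low CDPs, at 9.40 to 9.92 beside 9.74 to 10.67 in Zeb2hi CDPs. Pre-CD8 DC array 1 stood apart from array 2, and it carried the highest mean of 13 mature neutrophil genes, 11.9 against 9.97. That mean was 9.25, 10.05 and 8.40 on Zeb2hi arrays 1 to 3 and 9.54, 11.5 and 10.7 on Zeb2low arrays 1 to 3. All 13 genes passed the filter. Of these 3 were higher in Zeb2low and 4 in pre-CD8 DCs than in Zeb2hi CDPs, against 4.5% and 6.51% of all genes. None of the 13 passed the test as lower, against 10.3% and 11.1%. The list was not uniform, since Mpo was 12.56 to 12.63 on the Zeb2hi arrays and 9.21 to 11.86 on all others. Elane was 7.12 on Zeb2low array 1 beside 9.63 to 9.89 on the Zeb2hi arrays. The mean therefore mixes genes that moved in different directions. With Mpo and Elane in it, the mean does not stand for mature neutrophils alone. The monocyte and macrophage list had a mean of 7.06 to 7.97 over the arrays. Of its 7 tested genes 1 was lower in each comparison against Zeb2hi CDPs, near the 10.3% and 11.1% of all genes. The erythroid and megakaryocyte mean ranged from 4.19 to 4.96, the B cell mean from 4.63 to 5.39, the T, NK and innate lymphoid mean from 3.86 to 4.79, and the mast cell, basophil and eosinophil mean from 4.49 to 6.36. The shares of all genes to set beside these counts are those given above for the same comparisons. Lists with markers at the floor of the arrays included the B cell genes Ms4a1 and Ebf1 and the erythroid genes Klf1 and Gata1.

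The comparison of Zeb2low with Zeb2hi CDPs asks how the set differs between the fractions of 1 progenitor pool. Lower signals prevailed: 7 of the 28 tested genes were lower in Zeb2low CDPs, against 10.3% of all genes, and 1 was higher, against 4.5%. The genes that fell were Tpi1, Pgam1, Pgk1, Pfkl, Pgls, Slc16a1 and Pdk1, by 1.64-fold to 4.06-fold, and the gene that rose was Pfkfb3. The median difference of the 28 genes was -0.68, beside 0.03 for all genes, and 19 of 28 differences lay below 0, against 47.8% of all genes. Every Zeb2low array lay below every Zeb2hi array for 15 of the 28 genes, against 21.5% of all genes, and above it for 3, namely Pfkfb3, Aldoc and Eno3, against 20.2%.

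**Figure D1:**
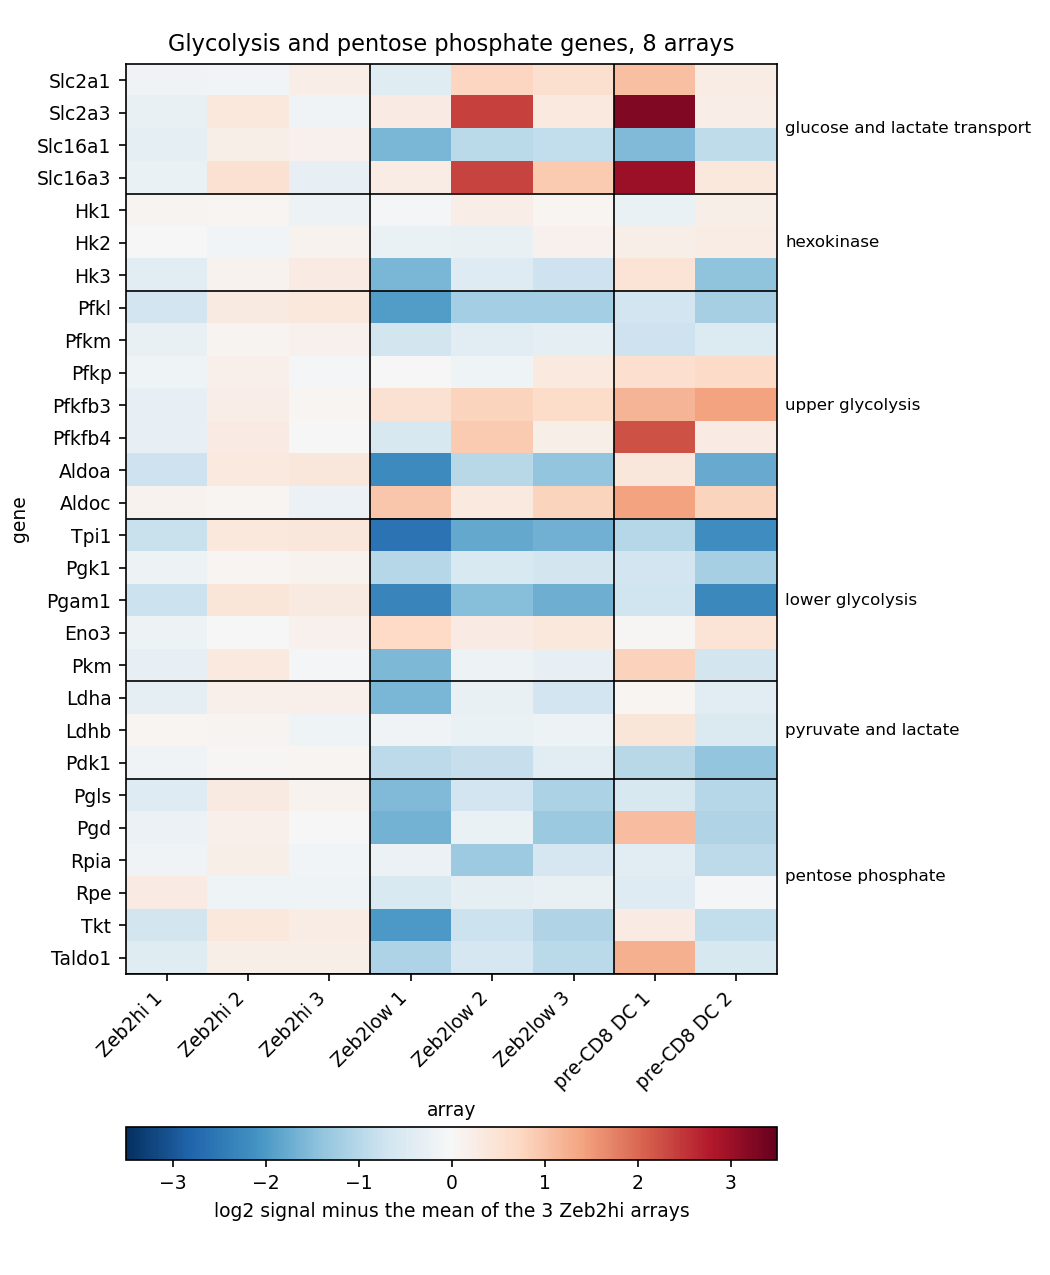
Log2 signal of the 28 tested genes (vertical axis, grouped by role) on the 8 arrays (horizontal axis), shown as the difference from the mean of the 3 Zeb2hi arrays, in blue for lower and red for higher. Tpi1, Pgam1 and Pfkl are blue on all Zeb2low arrays, Pfkfb3 is red on all Zeb2low and pre-CD8 DC arrays, and Slc2a3, Slc16a3 and Pfkfb4 are reddest on pre-CD8 DC array 1.

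Sequence around the start site is shown for 5 members, because glycolytic genes are known targets of the hypoxia-inducible factors and of MYC: Slc16a1, Pgk1 and Tpi1, which fell, Pfkfb3, which rose, and Slc16a3, the second monocarboxylate transporter gene, which did not pass the test. Each window is RefSeq sequence of build GRCm38.p6, from 250 bases before to 50 bases after the start, written 5′ to 3′ on the gene's strand. Capitals mark ACGTG, a form of the core of the hypoxia response element, or its other strand CACGT. These overlap in the MYC-type E-box CACGTG, and other forms of the core were not marked or counted. The windows are chr3:104638414-104638713 (plus strand) for Slc16a1, chr11:120948817-120949116 (plus) for Slc16a3, chrX:106186850-106187149 (plus) for Pgk1, chr6:124814109-124814408 (minus) for Tpi1 and chr2:11553880-11554179 (minus) for the first of the starts of Pfkfb3.
Slc16a1: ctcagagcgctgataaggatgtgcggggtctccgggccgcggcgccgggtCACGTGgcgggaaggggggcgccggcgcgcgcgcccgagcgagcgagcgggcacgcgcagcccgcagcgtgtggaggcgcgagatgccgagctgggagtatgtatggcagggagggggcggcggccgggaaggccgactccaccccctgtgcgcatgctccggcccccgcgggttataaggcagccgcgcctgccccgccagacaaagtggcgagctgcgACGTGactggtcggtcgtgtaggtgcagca
Slc16a3: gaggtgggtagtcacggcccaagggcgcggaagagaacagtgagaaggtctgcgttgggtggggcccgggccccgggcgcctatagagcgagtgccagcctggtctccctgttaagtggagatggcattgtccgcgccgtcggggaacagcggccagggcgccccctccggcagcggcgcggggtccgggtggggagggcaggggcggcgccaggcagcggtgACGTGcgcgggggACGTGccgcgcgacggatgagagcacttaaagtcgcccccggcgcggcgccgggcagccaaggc
Pgk1: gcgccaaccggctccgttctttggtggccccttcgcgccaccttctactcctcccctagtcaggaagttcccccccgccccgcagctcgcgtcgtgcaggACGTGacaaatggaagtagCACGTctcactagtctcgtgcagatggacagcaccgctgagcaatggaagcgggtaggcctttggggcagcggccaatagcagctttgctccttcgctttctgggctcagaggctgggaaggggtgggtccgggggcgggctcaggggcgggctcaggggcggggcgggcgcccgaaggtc
Tpi1: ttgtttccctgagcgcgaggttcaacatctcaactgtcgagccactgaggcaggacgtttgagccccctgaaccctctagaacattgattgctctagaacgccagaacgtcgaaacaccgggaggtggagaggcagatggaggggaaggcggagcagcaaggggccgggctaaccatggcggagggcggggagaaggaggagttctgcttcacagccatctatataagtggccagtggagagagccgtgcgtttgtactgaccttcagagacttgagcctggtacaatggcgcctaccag
Pfkfb3: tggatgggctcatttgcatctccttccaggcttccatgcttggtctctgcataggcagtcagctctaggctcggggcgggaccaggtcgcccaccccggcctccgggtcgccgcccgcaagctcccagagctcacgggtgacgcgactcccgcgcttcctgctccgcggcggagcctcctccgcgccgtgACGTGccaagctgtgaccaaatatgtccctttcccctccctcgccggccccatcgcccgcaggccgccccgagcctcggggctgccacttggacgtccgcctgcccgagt
Slc16a1 holds 1 CACGTG and a further ACGTG, Slc16a3 holds ACGTG at 2 places, Pgk1 holds ACGTG and CACGT once each, Pfkfb3 holds 1 ACGTG, and Tpi1 holds no match in this window. Of the 33 genes 32 had a RefSeq window, and 16 of these 32 (50%) held ACGTG on either strand in at least 1 window, beside 21.8% of 27025 genes. CACGTG was found for 4 of 32 (12.5%), beside 8.09% of genes. Pfkfb3 is among the 4 through its second start (window chr2:11502041-11502340, minus strand, not shown), which holds 1 CACGTG. Among the 7 genes that fell in Zeb2low CDPs 3 held ACGTG, namely Slc16a1, Pgk1 and Pgam1. These matches describe the letters of the windows, and no measurement here shows a factor bound there.

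Among the transporters, Slc16a1 was the only one to pass the test in the fit of all arrays. It encodes MCT1, a monocarboxylate carrier found in most cells. Its log2 signals were 6.02, 6.56 and 6.50 on Zeb2hi arrays 1 to 3, 4.77, 5.41 and 5.50 on Zeb2low arrays 1 to 3, and 4.81 and 5.46 on the pre-CD8 DC arrays. The Zeb2hi arrays were all above the 5 others, which overlapped with each other. Slc16a1 fell by 1.13 ± 0.26 (2.19-fold, adjusted p = 0.0236) in Zeb2low CDPs and by 1.22 ± 0.29 (2.34-fold, adjusted p = 0.0221) in pre-CD8 DCs, each against Zeb2hi CDPs.

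Slc16a3 encodes MCT4, the carrier of cells that export much lactate, and its signals were 6.05, 6.83 and 6.01 in Zeb2hi CDPs, 6.55, 8.65 and 7.22 in Zeb2low CDPs, and 9.30 and 6.65 in pre-CD8 DCs. Slc2a3 encodes the high-affinity glucose transporter GLUT3, and its signals were 5.71, 6.34 and 5.83, then 6.25, 8.34 and 6.30, then 9.21 and 6.18 in the same order. Both genes were highest on pre-CD8 DC array 1 and next on Zeb2low array 2, and the groups overlapped. In the fit of all arrays neither passed the test, with differences of 1.18 (Slc16a3, adjusted p = 0.267) and 1.004 (Slc2a3, adjusted p = 0.383) between the CDP fractions. The mature neutrophil mean was highest on the same 2 arrays, and its part in these values was not tested. Slc2a1, the widely expressed glucose transporter GLUT1, had signals of 7.10, 7.14 and 7.47 in Zeb2hi CDPs, 6.81, 7.97 and 7.79 in Zeb2low CDPs, and 8.27 and 7.50 in pre-CD8 DCs. Its pre-CD8 DC arrays were above all Zeb2hi arrays, by 0.66 on average (adjusted p = 0.248).

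The hexokinases, which trap glucose by phosphorylating it, did not pass the test between the CDP fractions in the fit of all arrays. Hk2, the inducible form, lay between 6.36 and 6.86 on all arrays. Hk3, the form of myeloid cells, had signals of 7.02, 7.55 and 7.70 in Zeb2hi CDPs, 5.82, 6.98 and 6.69 in Zeb2low CDPs, and 7.90 and 6.02 in pre-CD8 DCs, so that the CDP fractions did not overlap (Zeb2low minus Zeb2hi -0.93, adjusted p = 0.206). Pre-CD8 DC array 1 was above all Zeb2hi arrays and array 2 was within the Zeb2low range. Hk1, the housekeeping form, lay between 10.47 and 10.92 on all arrays by its brighter probe set, with a difference of 0.07 ± 0.17 between the CDP fractions that turned to -0.094 with arrays centred on their medians. The dimmer probe set of Hk1 gave -0.67 ± 0.18 (adjusted p = 0.0425 in limma over all 14639 single-gene probe sets), so the probe sets of Hk1 disagreed. The annotation also lists Hk1 on 16 probe sets shared with other genes. Which transcripts the brighter set reads is uncertain, so its flat values do not settle the course of Hk1.

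Upper glycolysis commits the sugar and splits it. Pfkl encodes the liver-type subunit of phosphofructokinase, the main controlled step, and its signals were 6.09, 7.07 and 7.12 in Zeb2hi CDPs, 4.80, 5.58 and 5.57 in Zeb2low CDPs, and 6.09 and 5.60 in pre-CD8 DCs. All Zeb2low arrays were below all Zeb2hi arrays, and both pre-CD8 DC arrays lay between these ranges. Pfkl fell by 1.45 ± 0.32 (2.73-fold, adjusted p = 0.0213) in Zeb2low CDPs, while pre-CD8 DCs were at -0.92 ± 0.36 against Zeb2hi CDPs (adjusted p = 0.116). The muscle-type subunit gene Pfkm was also lower on every Zeb2low array, 5.37 to 5.70 beside 5.76 to 6.17, with a difference of -0.46 (adjusted p = 0.105). The platelet-type subunit gene Pfkp did not follow, with 7.17, 7.50 and 7.30 in Zeb2hi CDPs, 7.34, 7.16 and 7.67 in Zeb2low CDPs, and 7.90 and 7.98 in pre-CD8 DCs. Its pre-CD8 DC arrays were above all CDP arrays, by 0.62 (adjusted p = 0.0551) over Zeb2hi and 0.55 (adjusted p = 0.273) over Zeb2low CDPs.

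Pfkfb3 encodes a kinase whose product, a regulatory sugar phosphate, switches phosphofructokinase on, and it ran against most of the pathway. Its signals were 6.38, 6.89 and 6.73 in Zeb2hi CDPs, 7.19, 7.46 and 7.32 in Zeb2low CDPs, and 7.86 and 8.08 in pre-CD8 DCs. The 3 groups did not overlap, with each Zeb2low array above each Zeb2hi array and below each pre-CD8 DC array. Pfkfb3 rose by 0.65 ± 0.17 (1.57-fold, adjusted p = 0.0355) in Zeb2low and by 1.30 ± 0.19 (2.47-fold, adjusted p = 0.00316) in pre-CD8 DCs over Zeb2hi CDPs. With each array centred on its median, the Zeb2low difference was 0.49 and no longer passed (adjusted p = 0.0904). Pfkfb4, a second enzyme of this family, was 4.88, 5.46 and 5.18 in Zeb2hi CDPs, 4.62, 6.08 and 5.39 in Zeb2low CDPs, and 7.40 and 5.45 in pre-CD8 DCs, with the groups overlapping.

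The aldolases split the sugar, and neither passed the test between the CDP fractions in the fit of all arrays. Aldoa, the main aldolase of most tissues, had signals of 9.85, 10.92 and 10.98 in Zeb2hi CDPs, 8.36, 9.62 and 9.20 in Zeb2low CDPs, and 10.98 and 8.83 in pre-CD8 DCs, and the CDP fractions did not overlap (-1.52, adjusted p = 0.101). Aldoc, the aldolase best known from brain, had signals of 4.69, 4.66 and 4.38, then 5.56, 4.92 and 5.35, then 5.98 and 5.35. All Zeb2hi arrays were below the 5 others. Aldoc rose by 1.09 ± 0.25 (2.13-fold, adjusted p = 0.0192) in pre-CD8 DCs over Zeb2hi CDPs, and its difference of 0.70 in Zeb2low CDPs did not pass (adjusted p = 0.0672). Its Zeb2hi signals were near the floor of the arrays, where differences are understated.

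Lower glycolysis, from the triose phosphates to pyruvate, held the largest decreases among the 28 genes. Tpi1, which interconverts the triose phosphates, had signals of 8.63, 9.79 and 9.80 in Zeb2hi CDPs, 6.83, 7.61 and 7.71 in Zeb2low CDPs, and 8.41 and 7.23 in pre-CD8 DCs. Every array of the other 2 populations was below every Zeb2hi array. Tpi1 fell by 2.02 ± 0.41 (4.06-fold, adjusted p = 0.0159) in Zeb2low and by 1.58 ± 0.46 (2.999-fold, adjusted p = 0.046) in pre-CD8 DCs, each against Zeb2hi CDPs. Pgam1, a phosphoglycerate mutase, followed the same course, with 9.39, 10.58 and 10.46 in Zeb2hi CDPs, 7.84, 8.65 and 8.43 in Zeb2low CDPs, and 9.45 and 7.90 in pre-CD8 DCs. It fell by 1.84 ± 0.44 (3.58-fold, adjusted p = 0.0272) in Zeb2low CDPs. In pre-CD8 DCs array 1 reached the lowest Zeb2hi array, and the difference of -1.47 from Zeb2hi CDPs did not pass (adjusted p = 0.0756).

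Pgk1, which makes the first ATP of the pathway, had signals of 10.05, 10.27 and 10.33 in Zeb2hi CDPs, 9.21, 9.69 and 9.58 in Zeb2low CDPs, and 9.54 and 9.05 in pre-CD8 DCs. The Zeb2hi arrays were above all others. Pgk1 fell by 0.73 ± 0.19 (1.65-fold, adjusted p = 0.0361) in Zeb2low and by 0.92 ± 0.21 (1.89-fold, adjusted p = 0.02) in pre-CD8 DCs. Eno3, the muscle enolase, was higher on every Zeb2low array, 6.39 to 6.81 beside 5.92 to 6.26, with a difference of 0.45 that did not pass (adjusted p = 0.125). Pkm, pyruvate kinase, had signals of 9.21, 9.82 and 9.42, then 7.91, 9.30 and 9.20, then 10.30 and 8.84, with the groups overlapping (Zeb2low minus Zeb2hi -0.68, adjusted p = 0.315). A second probe set of Pkm gave -2.01 ± 0.57 (adjusted p = 0.0466 in limma over all single-gene probe sets). Pgk1 and Pgam1 each had 2 further single-gene probe sets, of which 1 held the same values as the tested set. Glycolytic genes have processed pseudogenes, so which transcripts these probe sets read is uncertain.

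**Figure D2:**
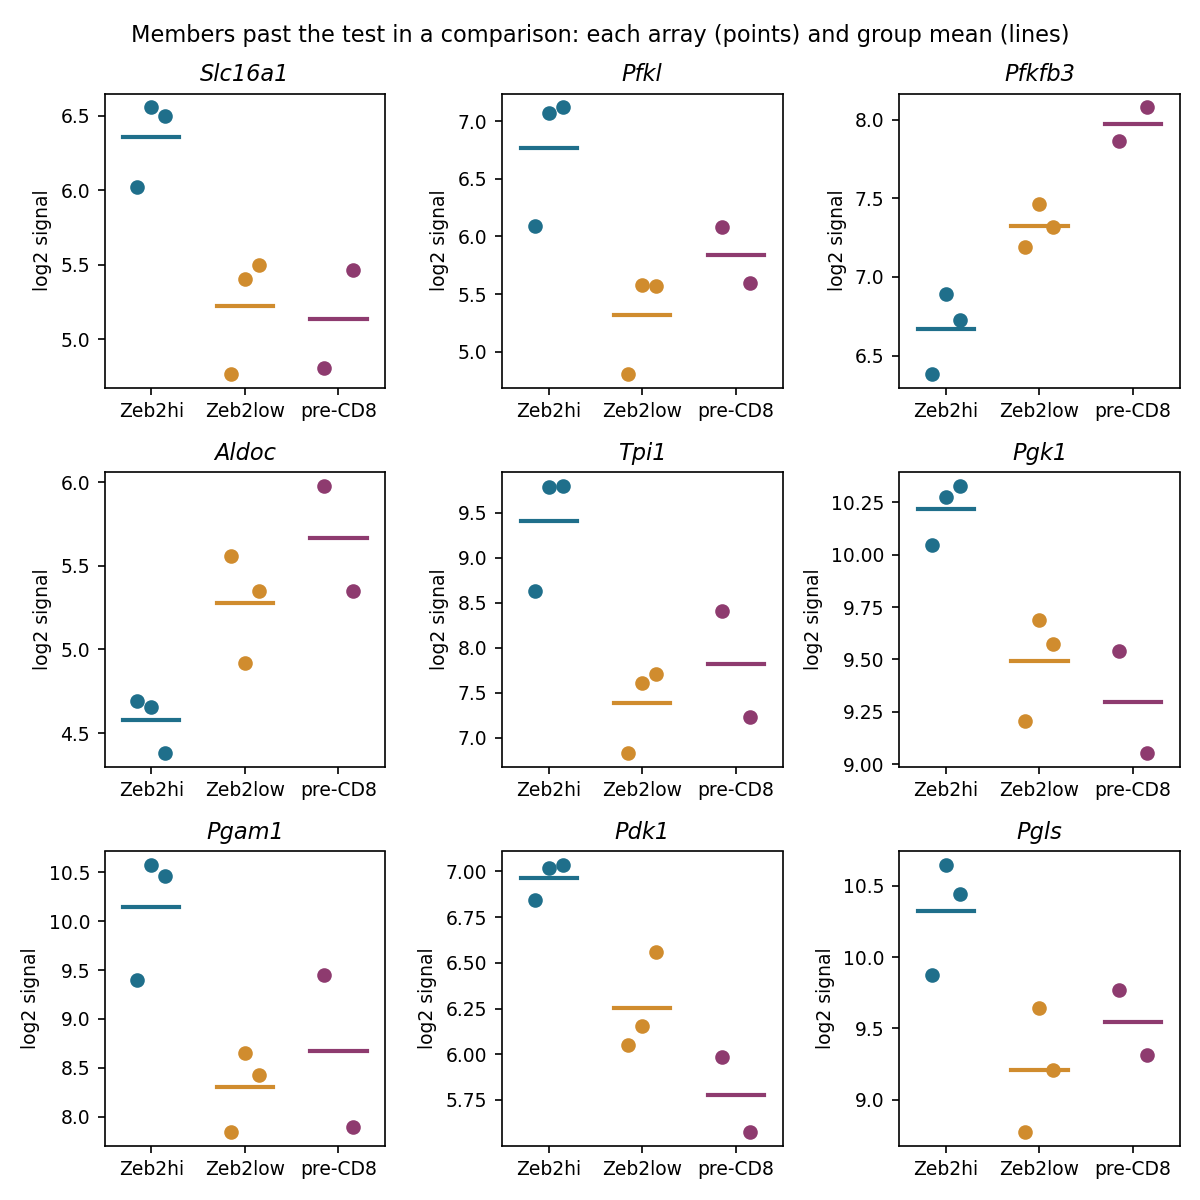
Log2 signal (vertical axis, a separate range for each gene) of the 9 genes that passed the test in a comparison, with 1 point per array and a line at each group mean. The Zeb2hi points of Slc16a1, Tpi1, Pgk1 and Pdk1 lie above all others, and Pfkfb3 and Aldoc show the opposite order.

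Of the genes at the pyruvate branch, Pdk1 fell. It encodes a kinase that holds pyruvate dehydrogenase off and so keeps pyruvate from the mitochondrial oxidation. Its signals were 6.84, 7.02 and 7.04 in Zeb2hi CDPs, 6.05, 6.15 and 6.56 in Zeb2low CDPs, and 5.98 and 5.57 in pre-CD8 DCs, and the 3 groups did not overlap. Pdk1 fell by 0.71 ± 0.18 (1.64-fold, adjusted p = 0.0338) in Zeb2low and by 1.19 ± 0.20 (2.28-fold, adjusted p = 0.00628) in pre-CD8 DCs against Zeb2hi CDPs. Ldha, the lactate dehydrogenase subunit of glycolytic cells, had signals of 9.61, 10.14 and 10.15, then 8.37, 9.72 and 9.31, then 10.05 and 9.61, with overlap (Zeb2low minus Zeb2hi -0.84, adjusted p = 0.117). Ldhb, the subunit of oxidative tissues, lay between 4.90 and 5.81 on all arrays.

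The pentose phosphate genes were all lower on average in Zeb2low CDPs, and 1 of 6 passed the test. Pgls, the lactonase of the oxidative branch, had signals of 9.88, 10.65 and 10.44 in Zeb2hi CDPs, 8.77, 9.65 and 9.21 in Zeb2low CDPs, and 9.77 and 9.31 in pre-CD8 DCs. All other arrays were below the Zeb2hi arrays. Pgls fell by 1.11 ± 0.27 (2.17-fold, adjusted p = 0.0292) in Zeb2low CDPs and was at -0.78 ± 0.31 in pre-CD8 DCs (adjusted p = 0.117). Pgd, the NADPH-yielding dehydrogenase that follows it, had signals of 8.67, 9.06 and 8.90, then 7.23, 8.64 and 7.58, then 9.95 and 7.81 (Zeb2low minus Zeb2hi -1.06, adjusted p = 0.196). Tkt, transketolase, had signals of 9.32, 10.33 and 10.21, then 7.94, 9.20 and 8.89, then 10.23 and 9.08 (-1.27, adjusted p = 0.0746). Taldo1, transaldolase, had signals of 8.94, 9.59 and 9.57, then 8.28, 8.78 and 8.43, then 10.62 and 8.80 (-0.87, adjusted p = 0.177). The CDP fractions did not overlap for these 3 genes, and pre-CD8 DC array 1 was above all Zeb2hi arrays for Pgd and Taldo1. Rpia and Rpe, which shape the ribose phosphates, were also lower on every Zeb2low array, at 6.09 to 7.17 beside 7.25 to 7.59 and at 6.44 to 6.69 beside 6.81 to 7.26.

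Same-numbered CDP arrays deviated together from their group means, so the fractions were also compared within pairs. The pairing was drawn from the same values, so results within pairs or with a block are not independent support for the differences. Array 1 was the lowest of its group for 22 of 28 genes in the Zeb2hi fraction and for 22 of 28 in the Zeb2low fraction (78.6% each), beside 41.2% and 41.4% of all genes. Within the pairs the Zeb2low array was lower in all 3 pairs for 18 of the 28 genes, against 32.2% of all genes, and higher in all 3 for 5, against 32.5%. Tpi1 differed by -1.80, -2.17 and -2.09 in pairs 1 to 3, Pfkl by -1.29, -1.50 and -1.56, and Tkt by -1.38, -1.12 and -1.32. The SD of the 3 pair differences was below the SD of both groups for 12 of 28 genes (42.9%), beside 25.8% of all genes. It was above both for 7 (25%), namely Aldoc, Eno3, Hk1, Ldhb, Pfkp, Rpe and Rpia, beside 40.2% of all genes. The 5 genes higher in every pair were Slc2a3, Slc16a3, Pfkfb3, Aldoc and Eno3.

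When the replicate number entered limma as a block on the 6 CDP arrays alone, the fit called 15 of the 28 genes lower, against 19% of all genes, and 4 higher, against 11.5%. The 7 decreases of the fit without the block were among the 15. The added genes were Aldoa (adjusted p = 0.00115), Tkt (0.00138), Taldo1 (0.00596), Hk3 (0.00664), Pgd (0.0119), Ldha (0.0135), Pfkm (0.0308) and Pkm (0.0496), all at the differences given above. The 4 higher genes were Pfkfb3, Slc16a3 (adjusted p = 0.0126), Aldoc (0.0224) and Slc2a3 (0.0421). The check of the numbers covers the CDP arrays, and whether they pair the pre-CD8 DC arrays with them was not tested. Array 1 was the lowest of its group for 22 of 28 members in each CDP fraction and the highest for 20 of 28 in pre-CD8 DCs. With the same block over all 8 arrays, 4 genes were lower, Tpi1, Pfkl, Slc16a1 and Pgls, against 8.46% of all genes, and Pfkfb3 was higher, against 3.16%. Pgam1 (adjusted p = 0.0614), Pgk1 (0.0726) and Pdk1 (0.0526) did not pass in that fit.

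**Figure D3:**
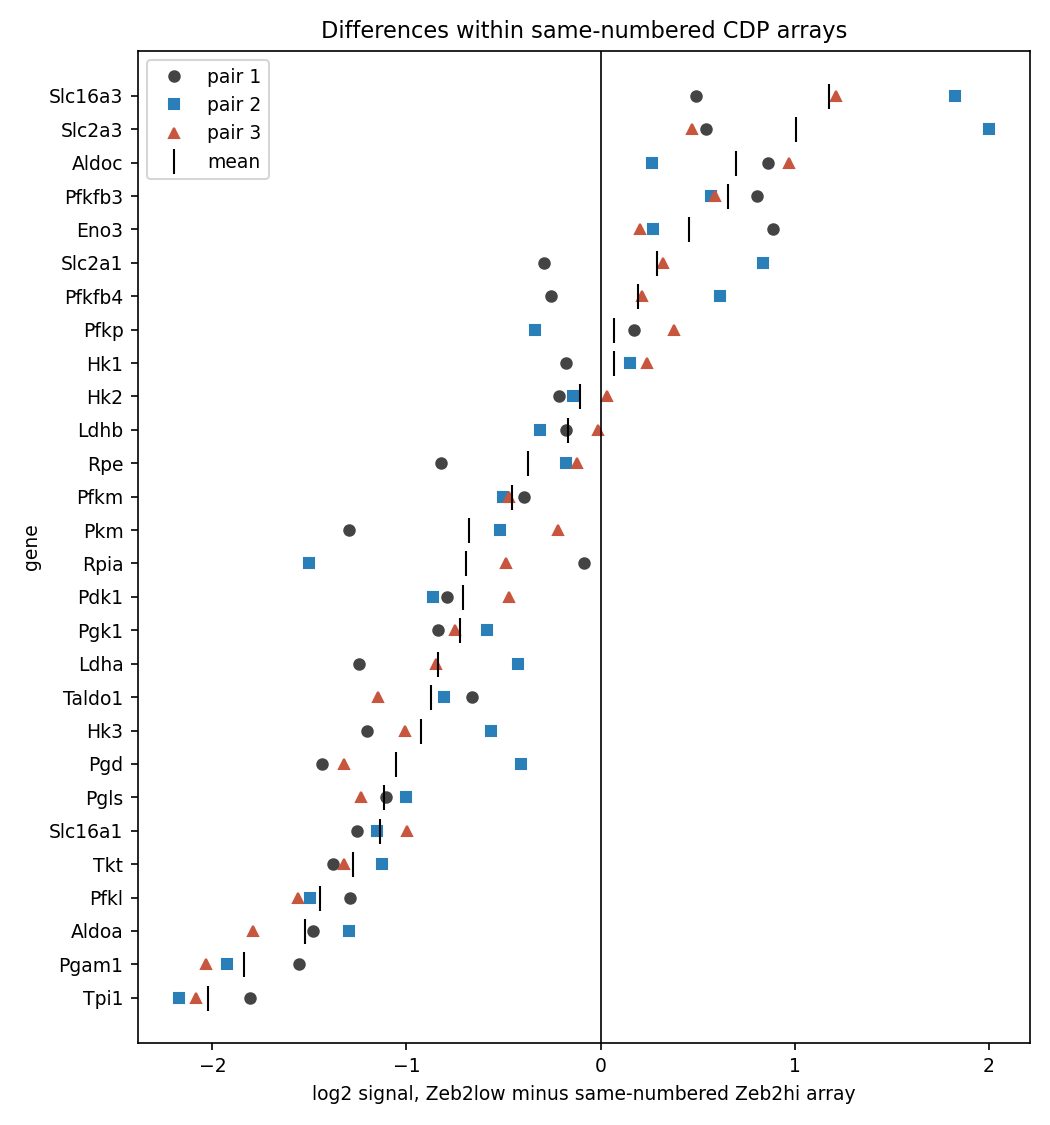
Log2 difference between the Zeb2low and the same-numbered Zeb2hi array (horizontal axis) for each of the 28 tested genes (vertical axis, ordered by mean), with a symbol per pair and a bar at the mean. For 18 genes all 3 symbols lie left of 0, and for 5 genes all lie right of it.

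The calls between the CDP fractions rested on few arrays. Without Zeb2hi array 2 or without Zeb2hi array 3 no member passed the test in limma, and the calls among all genes fell to 1.22% higher and 2.68% lower without array 2 and to 1.26% and 3.04% without array 3. At an unadjusted p under 0.05 there were 9 and 11 of 28 members, against 22.9% and 23.2% of all genes. Tpi1 then had an adjusted p of 0.0721 or 0.0701 and Pfkl of 0.0907 or 0.0875. Tpi1 and Pfkl passed in the other 6 fits that left out 1 array, and Slc16a1 in 5, failing also without Zeb2low array 1 (adjusted p = 0.0508). Pgls passed in 4 of 8 fits, failing also without Zeb2low array 1 (0.0689) or 3. Pdk1 passed in 4 of 8, failing also without Zeb2low array 1 (0.082) or 2 (0.0992). Pgk1 and Pgam1 passed in 3 of 8 fits, and without Zeb2low array 1 they had adjusted p = 0.0841 and 0.0716, without array 2 0.0553 and 0.0507, and without array 3 0.0774 and 0.068. Pfkfb3 passed in 3 of 8, failing also without Zeb2hi array 1 (0.0758) and without Zeb2low array 2 (0.108) or 3 (0.0894). The direction of these 8 genes was the same in all 8 fits. After quantile normalization Pgk1 (-0.38, adjusted p = 0.134) and Pgls (-0.80, adjusted p = 0.0563) did not pass between the CDP fractions. Without Zeb2low array 1 and pre-CD8 DC array 1 together, a choice made after seeing the data, 7 members were lower, 6 of them among the 7 above, with Rpia in place of Pgls (adjusted p = 0.0519), against 10.6% of all genes. In that fit Pfkfb3, Slc16a3 and Slc2a1 were higher, against 7.05%. With limma's array weights 13 members were lower, against 20% of all genes, and 2 higher, against 13.5%.

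The comparison of pre-CD8 DCs with Zeb2low CDPs follows the set from the progenitor fraction to the committed precursor. No member passed in limma in either direction, against 0.337% of all genes called higher and 0.217% called lower. At an unadjusted p under 0.05 there were 4 of 28, against 13.2% of all genes, and limma with array weights also called 0, against 0.27% higher and 0.202% lower. The all-array fit with the block (0.0749% and 0.0374% of all genes) and the fit without Zeb2low array 1 and pre-CD8 DC array 1 (0.18% and 0.15%) called 0 members as well. The 4 genes were Taldo1 (1.21, adjusted p = 0.313), Pfkfb3 (0.65, adjusted p = 0.202), Pfkp (0.55, adjusted p = 0.273) and Pdk1 (-0.48, adjusted p = 0.373). The 95% confidence interval of the difference was 0.22 to 1.08 for Pfkfb3, -0.61 to 1.49 for Tpi1 and -0.76 to 1.50 for Pgam1, so that for Tpi1 and Pgam1 it held differences of either sign.

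The median of the 28 differences was 0.41, beside -0.03 for all genes, and 6 of 28 lay below 0, against 53.7% of all genes, with the pre-CD8 DC arrays far apart. Array 1 was above array 2 for 20 of 28 genes (71.4%), beside 42.6% of all genes. Pre-CD8 DC arrays were both above all Zeb2low arrays for 5 genes, Hk2, Pfkfb3, Pfkl, Pfkp and Taldo1, against 12.4% of all genes, and both below for Pdk1, against 15.4%. Without array 2 Taldo1 was 2.12 higher in pre-CD8 DCs than in Zeb2low CDPs (adjusted p = 0.0348), and without array 1 it was 0.30 higher (adjusted p = 0.929), a single pre-CD8 DC array being assumed to vary like the other groups in each case.

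Pre-CD8 DCs were compared with Zeb2hi CDPs as well, a comparison that shares its Zeb2hi arrays with the first and its pre-CD8 DC arrays with the second. Among the 28 genes 4 were lower, Tpi1, Slc16a1, Pdk1 and Pgk1, against 11.1% of all genes, and 2 were higher, Pfkfb3 and Aldoc, against 6.51%. The median difference was -0.09, beside -0.02 for all genes, and 16 of 28 lay below 0, against 51.5% of all genes. The pre-CD8 DC arrays were both below all Zeb2hi arrays for 8 genes, against 27.1% of all genes, and both above for 5, Aldoc, Hk2, Pfkfb3, Pfkp and Slc2a1, against 21.4%. When the all-array fit held the replicate number as a block, Tpi1 (adjusted p = 0.12) and Pgk1 (0.0683) did not pass, which left 2 lower genes, against 7.47% of all genes, and the 2 higher ones, against 4.45%. With limma's array weights 7 genes were lower, against 12%, and 2 higher, against 6.65%.

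Pfkfb3 and Pdk1 passed in all 8 fits that left out 1 array. Slc16a1, Aldoc and Pgk1 passed in 5 and Tpi1 in 3. Without Zeb2hi array 2 or 3 the adjusted p was 0.0787 or 0.0749 for Slc16a1, 0.0542 or 0.0692 for Aldoc, 0.0693 or 0.0708 for Pgk1, and 0.138 or 0.135 for Tpi1. Without pre-CD8 DC array 1 Slc16a1 (0.137) and Aldoc (0.118) did not pass, and without array 2 Pgk1 (0.101) and Tpi1 (-0.997, adjusted p = 0.242) did not. Tpi1 also missed the threshold without Zeb2low array 2 (0.0599) or 3 (0.064). It missed it too with no filter on dim probe sets (adjusted p = 0.061), after quantile normalization (0.0531), with arrays centred on their medians (0.0518) and with a pseudocount of 32 (0.0606).

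Of the pre-CD8 DC arrays only array 1 carried high values of Slc2a3, Slc16a3 and Pfkfb4. Without array 2 Slc2a3 was higher than in Zeb2hi CDPs by 3.25 (adjusted p = 0.0267), Slc16a3 by 3.01 (0.0291) and Pfkfb4 by 2.23 (0.0239), and 6 members were called higher, against 7.04% of all genes. Without array 1 those differences were 0.22, 0.36 and 0.28 (adjusted p = 0.878, 0.784 and 0.757), and 1 member was called higher, against 3.65% of all genes. In both fits the single pre-CD8 DC array is assumed to vary like the other groups. With both arrays they were 1.74, 1.68 and 1.25 (adjusted p = 0.208, 0.179 and 0.164). The mature neutrophil mean was 11.9 on array 1 and 9.97 on array 2, and its part in these differences was not tested. Pgam1 was at -2.25 without array 1 (adjusted p = 0.0282) and -0.69 without array 2 (adjusted p = 0.402). Without Zeb2low array 1 and pre-CD8 DC array 1 together, Aldoa, Hk3, Pdk1, Pgam1, Pgk1 and Tpi1 were lower, against 9.47% of all genes, and Pfkfb3 was higher, against 5.57%.

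**Figure D4:**
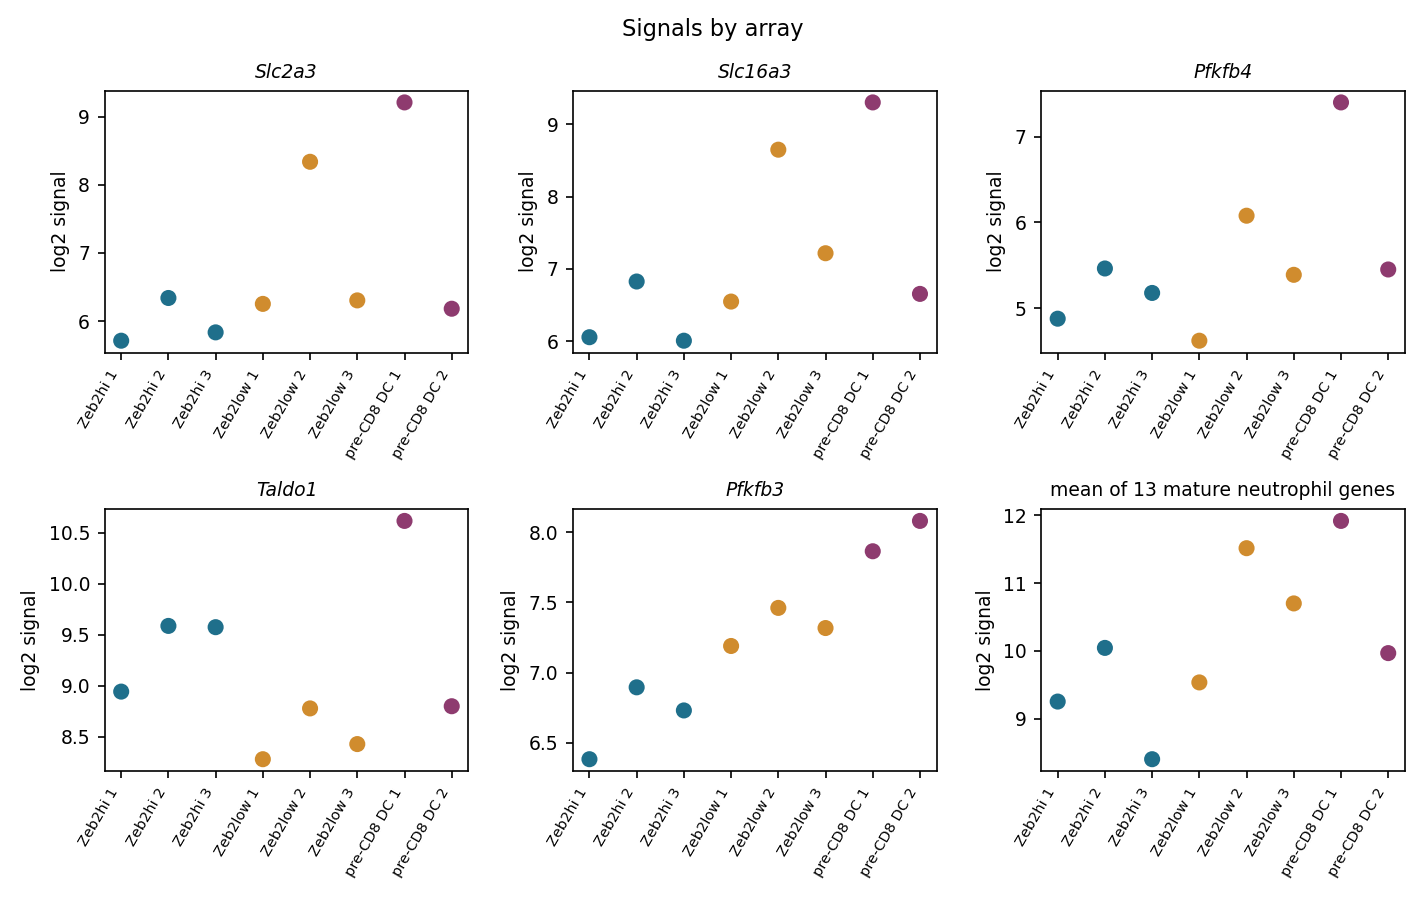
Log2 signal (vertical axis, a separate range for each panel) of Slc2a3, Slc16a3, Pfkfb4, Taldo1 and Pfkfb3 and the mean of 13 mature neutrophil genes on each array (horizontal axis), in blue for Zeb2hi, orange for Zeb2low and purple for pre-CD8 DC arrays. Slc2a3, Slc16a3, Pfkfb4 and the neutrophil mean are highest on pre-CD8 DC array 1 and next on Zeb2low array 2, and Pfkfb3 is highest on pre-CD8 DC array 2.

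Neighbouring carbohydrate metabolism was counted over 62 further genes, of which 49 were tested. In Zeb2low against Zeb2hi CDPs 9 of 49 were lower, against 10.3% of all genes, and 1 was higher, against 4.5%. The decreases with the smallest p were in Pdha1, a subunit of pyruvate dehydrogenase (-1.13, adjusted p = 0.00568), Prps2, which makes the activated ribose of nucleotide synthesis (-1.12, adjusted p = 0.00568), and Idh1, a cytosolic source of NADPH (-1.72, adjusted p = 0.00837). The increase was in Gpd2, the mitochondrial glycerol phosphate dehydrogenase (0.76, adjusted p = 0.0145). None of this list passed in limma between pre-CD8 DCs and Zeb2low CDPs, with or without array weights, and 7 of 49 had an unadjusted p under 0.05, near the 13.2% of all genes. Against Zeb2hi CDPs, pre-CD8 DCs were lower in 9 of 49 genes, against 11.1% of all genes, and higher in 2, against 6.51%. The decreases were led by Prps2 (-1.56, adjusted p = 0.00155), Pdha1 (-1.35, adjusted p = 0.00272) and Dld, another pyruvate dehydrogenase subunit (-1.26, adjusted p = 0.00285), and the increases were in Gpd2 (0.80, adjusted p = 0.014) and Pgam2 (0.79, adjusted p = 0.0485). Pdha1, Prps2, Idh1 and Dld passed in all 8 fits that left out 1 array in the comparisons named. Gpd2 passed in 5 and in 6 of 8, with an adjusted p of 0.0712 without Zeb2hi array 2 between the CDP fractions and of 0.0746 without pre-CD8 DC array 1 in the other comparison. Pgam2 passed in 2 of 8 and under 2 of 9 other settings, and it did not pass with the block over all arrays (0.0706).

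Of 26 genes that respond to hypoxia or sense it 23 were tested. The counts called were near those of all genes between the CDP fractions, with 3 of 23 lower in Zeb2low cells, against 10.3%, and 1 higher, against 4.5%. The lower genes were Fam162a (-0.68, adjusted p = 0.0257), Car9, a carbonic anhydrase (-0.59, adjusted p = 0.0324), and P4ha1, a collagen prolyl hydroxylase subunit (-0.62, adjusted p = 0.035), and the higher one was Vhl, which marks the hypoxia-inducible factors for destruction (0.53, adjusted p = 0.026). With the replicate block over all arrays none of these 4 passed, at adjusted p of 0.0564 to 0.0719, and without Zeb2hi array 2 none passed either (0.0789 to 0.12), nor without Zeb2hi array 3 (0.0775 to 0.133). In pre-CD8 DCs against Zeb2hi CDPs 4 of 23 were higher, against 6.51% of all genes, and 4 lower, against 11.1%. Fam162a (-1.20, adjusted p = 0.00341), Car9 (-0.84, adjusted p = 0.011) and Vhl (0.75, adjusted p = 0.00852) passed in all 8 fits that left out 1 array and with that block. The oxygen sensor Egln3 (-1.16, adjusted p = 0.0445) and the angiogenic factor Vegfa (1.04, adjusted p = 0.0273) did not pass with it (0.123 and 0.0562). Egln3 passed in 3 of 8 fits that left out 1 array, with a difference of -0.69 (adjusted p = 0.237) without pre-CD8 DC array 2. Vegfa passed in 4 of 8, with 0.83 (adjusted p = 0.151) without pre-CD8 DC array 1. Both missed the threshold without any 1 of the Zeb2hi arrays. Ddit4 was higher as well (1.12, adjusted p = 0.0324), and it too missed the threshold without any 1 of the Zeb2hi arrays. Ddit4 passed in 4 of 8 fits that left out 1 array, failing also without pre-CD8 DC array 2. Its difference was 0.76 to 1.49 over these 8 fits, and it passed under 8 of 9 other settings. Between pre-CD8 DCs and Zeb2low CDPs limma called 0 genes of this list, against 0.337% of all genes higher and 0.217% lower, and 2 of 23 had an unadjusted p under 0.05, against 13.2%.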

How the data were processed

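Expression was measured on 8 arrays (3 Zeb2hi CDP, 3 Zeb2low CDP, 2 pre-CD8 DC), which were grouped by sample title. The deposited table holds linear probe set intensity values. The submitters' processing notes name Affymetrix Expression Console and robust multi-array average (RMA), without versions in the sources used here. RMA gives no detection call. Of 28853 probe sets the annotation assigns 21789 to 1 gene, 1621 to several and 5443 to none, and those of the first kind were used.

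After log2 transformation, a probe set was kept if 2 or more arrays exceeded their 40th percentile, and the brightest single-gene probe set stood for its gene. A single limma 3.58.1 fit (lmFit and eBayes, two-sided, R 4.3.3) held all 8 arrays, with 5 residual degrees of freedom, and p-values were adjusted by Benjamini-Hochberg over 13356 genes in each comparison, with a threshold of 0.05. "Adjusted p" is this value unless another fit is named, and values after ± are standard errors from limma. Precision is limited by the number of arrays. The fit was tested on simulated data with independent noise, without the deviations shared by same-numbered arrays. Over the 3 comparisons it recovered 62 to 67 of 100 changes of 1 log2 unit and 97 to 99 of 100 changes of 2. It made 8 to 11 false calls. The changed genes were drawn at random from all 13356, so the recovery does not hold for members with a wide spread. Slc2a3, for instance, had a standard error of 0.77 between the CDP fractions. Deviations from the group means correlated between Zeb2hi and Zeb2low arrays of the same number (r = 0.478, 0.407 and 0.308 across genes for numbers 1 to 3), so the numbers were treated as pairs. Between arrays of differing numbers r ranged from -0.425 to 0.143. No label says what the numbers stand for, and the pairing rests on the values.

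The members, the gene and marker lists and the rule for named genes were chosen with earlier results of these data known. The rule was to account for every member, to give array values for members past the test and for isozyme or transporter pairs, and to name up to 3 genes per direction of the wider lists. Alternatives were filters, scalings, a pseudocount of 32, the probe set choice, array weights, the replicate block and leaving out arrays. Leaving out Zeb2low array 1 with pre-CD8 DC array 1, and testing every single-gene probe set, were chosen after seeing the data.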

Additional observations from a re-analysis of the deposited data

How the results depend on the processing

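Of 1116 recomputed differences of named genes 946 kept their direction and their side of the threshold, 122 no longer passed, 44 passed newly and 4 turned, all of Hk1 between the CDP fractions (-0.094 with arrays centred on their medians, -0.30 as the mean of its probe sets, and -0.022 to 0.14 leaving out 1 array, without passing the test). Centring moved the median difference of all genes between the CDP fractions by -0.16 and the calls from 601 higher and 1377 lower to 371 and 2233, with 0 members higher (Pfkfb3 lost its call) and 8 lower. The stricter filter left 25 members to test among 8976 genes, and Aldoc was not among these members. With it 28 genes were higher in pre-CD8 DCs against Zeb2low CDPs and 1 member was higher against Zeb2hi CDPs. With the replicate block over the CDP arrays alone 1536 genes were higher and 2534 lower, with 4 and 15 members. On all arrays the block left 4 members lower between the CDP fractions, 10 genes higher and 5 lower in pre-CD8 DCs against Zeb2low CDPs, and 2 members lower in pre-CD8 DCs against Zeb2hi CDPs. Leaving Ddit4 aside, the block changed no other call of a named gene than those given beside the results. Array weights called 1798 genes higher and 2669 lower between the CDP fractions, with 2 and 13 members, and 7 members lower in pre-CD8 DCs against Zeb2hi CDPs. Without Zeb2low array 1 and pre-CD8 DC array 1 together, 942 genes and 3 members were higher between the CDP fractions, and pre-CD8 DCs had 24 genes higher than Zeb2low CDPs, and 1 member higher than Zeb2hi CDPs. Leaving out 1 array at a time gave 163 to 750 genes higher and 358 to 1474 lower between the CDP fractions, with 0 to 2 and 0 to 9 members. It gave 17 to 88 higher and 4 to 59 lower in pre-CD8 DCs against Zeb2low CDPs, with 0 to 1 member higher and 0 lower. Against Zeb2hi CDPs it gave 463 to 1046 higher and 709 to 1729 lower, with 1 to 6 and 1 to 7 members. Apart from members that a filter took out, the cause of these moves was not tested. With 2 or 3 arrays a group and no detection call, differences of dim genes such as Aldoc are understated.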
